A study of Homo sapiens with 8 samples.

Results

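The genes described here are 10 genes whose products limit signalling through the mitogen-activated protein kinases (MAPKs): the MAPK phosphatase (MKP) genes DUSP1, DUSP4, DUSP5, DUSP6 and DUSP10, the Sprouty genes SPRY1, SPRY2 and SPRY4, and the Sprouty-related genes SPRED1 and SPRED2. They were taken by symbol from a table of 26364 genes, and all 10 were among the 14201 genes with enough reads to be tested. RNA-Seq was performed on 2 stable clones of LN229, an established human glioblastoma cell line, both transfected with pcDNA3.1 plasmids, kept under 0.75 mg/ml G418 and carrying the Survivin (BIRC5) cDNA fused to eGFP. Clone Surv-GFP (D6) carries Survivin with a functional nuclear export sequence (NES), and the fusion protein is labelled as mainly cytoplasmic. The paper reports, however, that this fusion protein accumulates in the nucleus upon TMZ. Exposed Surv-GFP libraries therefore cannot be read as a group with cytoplasmic Survivin alone. Where the protein lay in the cells sequenced was not tested here. Clone SurvNESmut-GFP (L2) carries Survivin whose NES was inactivated by leucine-to-alanine substitutions, and the fusion protein is labelled as mainly nuclear. Each clone was left untreated or received the alkylating drug temozolomide (TMZ) at 50 µM over 48 h, and each of the 4 groups holds 2 libraries, a and b. Since each construct is represented by 1 clone, and no library of parental LN229 was used here, the NES mutation cannot be told apart from other differences between the clones.

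MAPK signalling is restrained by products of the genes it induces. The cascade runs from receptor tyrosine kinases through RAS, RAF and MEK to ERK, and parallel branches lead to JNK and p38. MKPs remove the activating phosphates from the kinases: DUSP1, DUSP4 and DUSP5 act in the nucleus, DUSP6 acts on ERK in the cytoplasm, and DUSP10 prefers JNK and p38. Sprouty and SPRED proteins act further upstream, between the receptor and RAF. Several of these genes are transcribed upon ERK activity, so that their RNA is widely used as a readout of the pathway, also in glioblastoma, where receptor tyrosine kinases are frequently activated.

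The libraries held 15826923 to 18861603 reads on genes, and libraries a and b of a group differed by more than counting noise, with a chi-square per degree of freedom between 2.16 and 5.54, highest in TMZ-exposed SurvNESmut-GFP. BIRC5 was expressed in every library, at 1152 and 1113 counts per 1000000 reads (CPM) in untreated and 1938 and 2029 CPM in TMZ-exposed Surv-GFP, compared to 407 and 414 CPM in untreated and 262 and 253 CPM in TMZ-exposed SurvNESmut-GFP. The clones thus differed in the total amount of BIRC5 RNA as well as in the NES. A gene count cannot separate reads of the endogenous gene from reads of the BIRC5 cDNA on the plasmid. By qPCR of the endogenous gene alone, the paper reports repression in Surv-GFP cells at the exposure time used here, followed by recovery. The higher count in exposed Surv-GFP is therefore not shown to be an increase of the endogenous gene. The line markers VIM, NES and CD44 were abundant in all libraries, whereas GFAP was near 0 and the leukocyte, endothelial and epithelial markers PTPRC, PECAM1 and EPCAM had at most 7 counts. The other line markers differed between the clones and with TMZ: S100B was at 777 CPM in untreated and 263 CPM in exposed Surv-GFP against 40.6 and 16.8 CPM in SurvNESmut-GFP. OLIG2 was at 34.0 and 17.3 CPM against 6.94 and 6.81 CPM, and SOX2 fell upon TMZ by 0.74 and 0.81 on the log2 scale. Of the 6 line markers tested, 5 fell in Surv-GFP, and 4 fell and 1 (CD44) rose in SurvNESmut-GFP. Over all genes tested, 28.9% fell in Surv-GFP, and 19.1% fell and 18.6% rose in SurvNESmut-GFP. The part of these markers in the results of the 10 genes was not tested.

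Upon TMZ, increases were found among the MKP genes, decreases among the SPRED genes and both among the Sproutys. In Surv-GFP, 4 genes rose (DUSP4, DUSP5, DUSP10, SPRY2) and 3 fell (SPRY4, SPRED1, SPRED2). In SurvNESmut-GFP, 4 rose (DUSP4, DUSP5, DUSP6, DUSP10) and 3 fell (SPRY1, SPRY4, SPRED1). The increases of DUSP5 and DUSP10, 8.48-fold and 9.80-fold in Surv-GFP, were much smaller in SurvNESmut-GFP, while SPRY4 fell in both clones. Genes were called at an adjusted p of 0.05 by edgeR's quasi-likelihood F test over all 14201 genes tested. Of all genes tested, 30.1% were called higher and 28.9% lower upon TMZ in Surv-GFP, and 18.6% higher and 19.1% lower in SurvNESmut-GFP. Calls were thus frequent across the transcriptome, and the counts of the 10 genes in Surv-GFP were near this background. The authors, who also used edgeR's quasi-likelihood F test, reported few significant hits for the TMZ effects and loosened their threshold. The reason for this difference was not tested. The p-values given here rest on the spread between libraries a and b, which may be biological replicates or technical duplicates. In Surv-GFP the median log2 fold change of the 10 genes was 0.12, beside 0 over all genes tested, and in SurvNESmut-GFP it was 0.16, beside 0.0035.

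**Figure D1:**
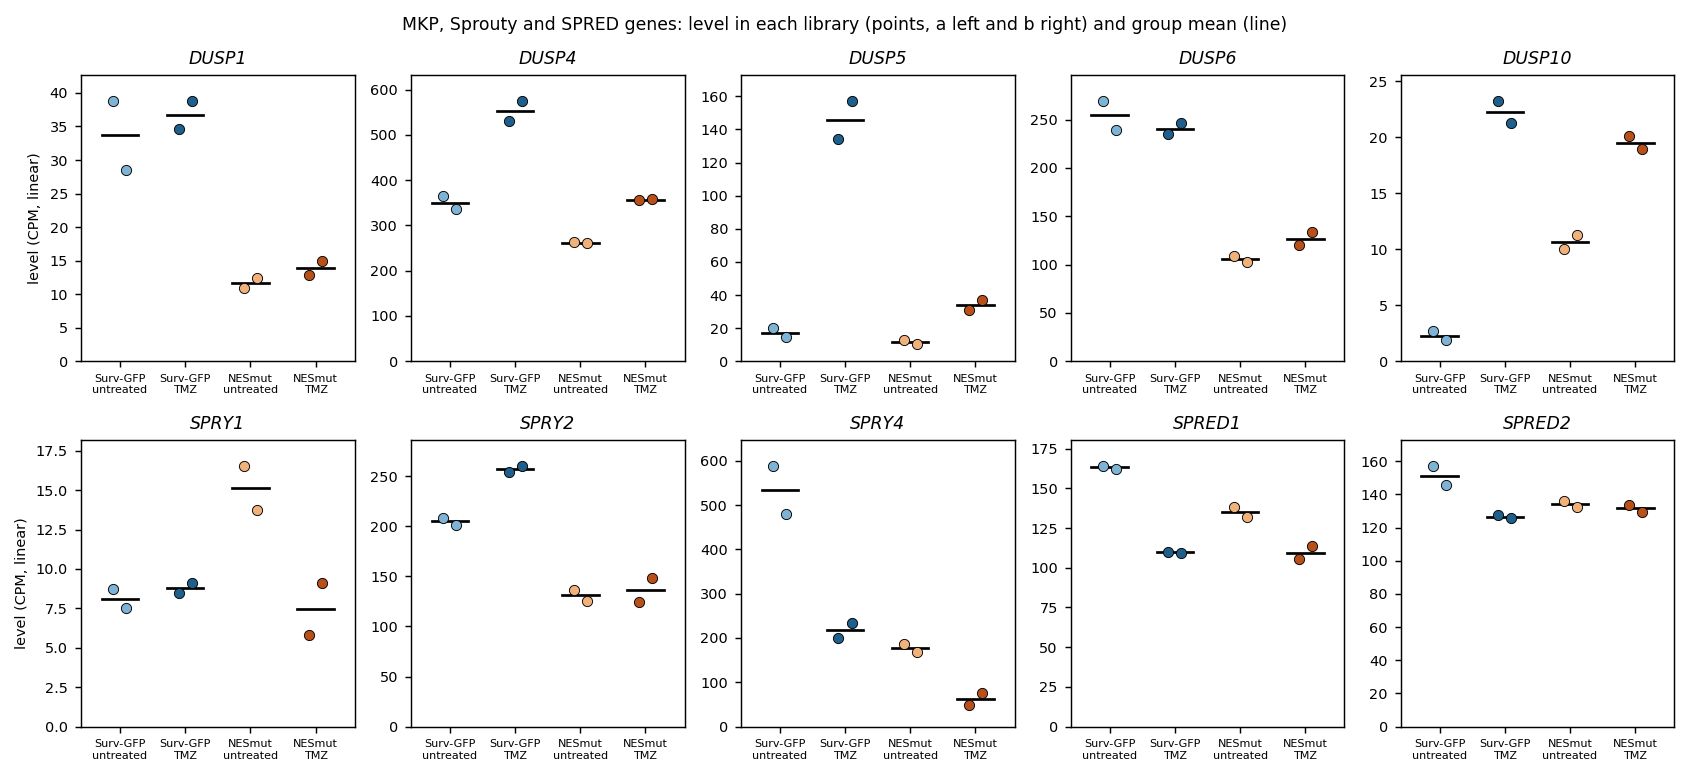
Level of each of the 10 genes (vertical axes, CPM, linear from 0, own scale per gene) in the 2 libraries of each group (points) with the group mean (line). DUSP5 stood highest in TMZ-exposed Surv-GFP, and SPRY4 was lowest in TMZ-exposed SurvNESmut-GFP. DUSP10 was lowest in untreated Surv-GFP and lay close together in the exposed clones.

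DUSP5, which dephosphorylates ERK and anchors it in the nucleus, was at 19.9 and 14.4 CPM in untreated Surv-GFP and at 134 and 157 CPM upon TMZ. In SurvNESmut-GFP it was at 12.8 and 10.1 CPM untreated and at 30.7 and 36.7 CPM upon TMZ. Exposed and untreated libraries did not overlap in either clone, and the exposed Surv-GFP libraries stood far above the other 6. The log2 fold change was 3.08 ± 0.12 (SE, n = 2 against 2, adjusted p = 1.95e-12, edgeR) in Surv-GFP and 1.55 ± 0.15 (adjusted p = 4.80e-07, edgeR) in SurvNESmut-GFP. The difference between these effects, tested as the interaction of clone and exposure, was -1.53 ± 0.20 (adjusted p = 1.75e-05, edgeR): the increase was 2.89-fold smaller in SurvNESmut-GFP. As with every gene here, a change in RNA per cell cannot be told apart from a change in the share of cells that express it.

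DUSP10, the phosphatase of JNK and p38, was nearly silent in untreated Surv-GFP with 2.66 and 1.88 CPM (49 and 34 reads) and reached 23.3 and 21.3 CPM upon TMZ. SurvNESmut-GFP already had 10.0 and 11.3 CPM untreated and rose to 20.1 and 18.9 CPM. The exposed libraries of the 2 clones thus lay close to each other, while the untreated ones were widely separated. The log2 fold change upon TMZ was 3.29 ± 0.15 (adjusted p = 1.23e-11, edgeR) in Surv-GFP and 0.87 ± 0.11 (adjusted p = 1.31e-05, edgeR) in SurvNESmut-GFP, and the interaction was -2.42 ± 0.20 (adjusted p = 1.15e-07, edgeR), the largest of the 10 genes in size.

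DUSP4, a nuclear phosphatase of ERK and JNK, was far more abundant, at 365 and 336 CPM in untreated Surv-GFP and 531 and 576 CPM upon TMZ. In SurvNESmut-GFP it was at 264 and 260 CPM untreated and at 355 and 358 CPM upon TMZ. Every exposed library lay above the untreated libraries of its clone, and exposed SurvNESmut-GFP only reached the range of untreated Surv-GFP. The increase was 1.58-fold (log2 0.66 ± 0.05, adjusted p = 2.01e-08, edgeR) in Surv-GFP and 1.36-fold (0.45 ± 0.05, adjusted p = 6.88e-06, edgeR) in SurvNESmut-GFP. The interaction of -0.21 ± 0.08 was close to the threshold (adjusted p = 0.0362, edgeR) and was lost when library totals or DESeq2 size factors set the scale (adjusted p = 0.109 and 0.0527) and without untreated Surv-GFP b, TMZ-exposed Surv-GFP b or either untreated library of SurvNESmut-GFP (adjusted p between 0.0733 and 0.295, edgeR).

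DUSP6, the cytoplasmic ERK phosphatase, was at 270 and 239 CPM in untreated Surv-GFP and at 235 and 246 CPM upon TMZ, so the libraries overlapped. In SurvNESmut-GFP, 109 and 103 CPM untreated compared to 120 and 133 CPM upon TMZ, without overlap. The log2 fold change was -0.08 (95% interval -0.22 to 0.05, adjusted p = 0.281, edgeR) in Surv-GFP and 0.26 ± 0.07 (adjusted p = 0.00673, edgeR) in SurvNESmut-GFP, and the effects differed by 0.34 ± 0.09 (adjusted p = 0.00877, edgeR). Both calls were lost without untreated SurvNESmut-GFP b (adjusted p = 0.0937 for the increase and 0.0630 for the difference, edgeR), and the difference was also lost without untreated Surv-GFP a (adjusted p = 0.0689, edgeR). The exons of DUSP6 overlap an annotated antisense RNA, and the counts may hold reads of both, since no source here says whether strand was used.

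DUSP1, a nuclear phosphatase acting on p38, JNK and ERK, was at 38.9 and 28.5 CPM in untreated and 34.6 and 38.8 CPM in TMZ-exposed Surv-GFP. SurvNESmut-GFP had 10.8 and 12.4 CPM untreated and 12.8 and 15 CPM upon TMZ. The gene separated the clones rather than the exposures. Neither TMZ effect passed the test, with log2 fold changes of 0.12 (95% interval -0.12 to 0.37) and 0.25 (-0.08 to 0.59) and adjusted p-values of 0.381 and 0.222 (edgeR). Without untreated Surv-GFP a, however, DUSP1 was called higher upon TMZ in that clone (0.37, adjusted p = 0.0145, edgeR).

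Of the 5 remaining MKP genes, 3 rose upon TMZ in both clones. Over all genes tested, 30.1% rose in Surv-GFP and 18.6% in SurvNESmut-GFP, each clone taken alone. The share that rose in both was not computed. DUSP8, like DUSP10 a phosphatase of JNK and p38, was at 3.14 and 3.04 CPM in untreated Surv-GFP and at 21.6 and 24.3 CPM upon TMZ. In SurvNESmut-GFP it went from 11.0 and 9.33 to 23.0 and 16.6 CPM. Over the 4 group means its pattern was among the 2 closest to that of DUSP10, with a root-mean-square distance of 0.20 log2 units, and its interaction was -1.92 ± 0.23 (adjusted p = 8.89e-06, edgeR). DUSP7, an ERK phosphatase of the cytoplasm, and DUSP16, a JNK phosphatase, also rose in both clones, with log2 fold changes of 1.06 ± 0.07 and 0.63 ± 0.07 in Surv-GFP against 0.59 ± 0.07 and 0.32 ± 0.07 in SurvNESmut-GFP. Both interactions were called (-0.46, adjusted p = 0.00147, and -0.32, adjusted p = 0.0249, edgeR), that of DUSP16 not by DESeq2 (adjusted p = 0.130), with library totals (0.0627) or without either untreated Surv-GFP library, exposed Surv-GFP a, or library a of untreated or exposed SurvNESmut-GFP (0.0656 to 0.108, edgeR).

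DUSP2 and DUSP9 went the other way at low levels in Surv-GFP. DUSP2, a nuclear phosphatase, had 18.4 and 9.44 CPM in untreated and 6.31 and 9.18 CPM in exposed Surv-GFP. The log2 fold change was -0.85 ± 0.25 (adjusted p = 0.00733, edgeR). With all libraries kept, this change was not called by DESeq2 (adjusted p = 0.242) or with a robust prior (adjusted p = 0.134, edgeR). It was also not called without untreated Surv-GFP a (-0.29) or exposed Surv-GFP a (-0.60). In SurvNESmut-GFP DUSP2 had 4 to 15 reads a library. DUSP9 had 4 to 26 reads in all 8 libraries, and its call in Surv-GFP (-1.82 ± 0.48, adjusted p = 0.00363, edgeR) was lost without either library a of that clone.

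To show the DNA next to the start sites of genes that moved together or apart, the 250 bases upstream of the first RefSeq start (GRCh38.p14) are given, 5′ to 3′ on the strand of the gene, for DUSP10 (chr1:221742090-221742339, minus strand), DUSP8 (chr11:1572272-1572521, minus strand), DUSP1 (chr5:172771196-172771445, minus strand) and DUSP6 (chr12:89352502-89352751, minus strand). Capitals mark matches to the motifs searched on both strands: the cyclic AMP response element (CRE) TGACGTCA, its core TGACG, which lies within the CRE on either strand, the ETS core CCGGAA and the AP-1 site TGANTCA.
DUSP10: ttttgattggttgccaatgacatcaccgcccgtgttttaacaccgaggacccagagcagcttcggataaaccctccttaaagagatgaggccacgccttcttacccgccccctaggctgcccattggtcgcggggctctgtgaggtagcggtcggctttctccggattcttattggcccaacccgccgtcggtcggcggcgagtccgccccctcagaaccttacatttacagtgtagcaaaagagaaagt
DUSP8: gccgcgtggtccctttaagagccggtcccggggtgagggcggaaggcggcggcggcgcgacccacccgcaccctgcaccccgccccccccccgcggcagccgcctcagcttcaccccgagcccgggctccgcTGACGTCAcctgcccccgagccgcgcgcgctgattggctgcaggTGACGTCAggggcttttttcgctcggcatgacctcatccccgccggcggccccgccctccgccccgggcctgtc
DUSP1: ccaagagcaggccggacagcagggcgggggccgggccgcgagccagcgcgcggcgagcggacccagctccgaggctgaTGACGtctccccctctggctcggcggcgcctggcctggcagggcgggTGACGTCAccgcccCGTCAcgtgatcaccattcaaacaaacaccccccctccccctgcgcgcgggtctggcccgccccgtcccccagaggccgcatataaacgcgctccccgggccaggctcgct
DUSP6: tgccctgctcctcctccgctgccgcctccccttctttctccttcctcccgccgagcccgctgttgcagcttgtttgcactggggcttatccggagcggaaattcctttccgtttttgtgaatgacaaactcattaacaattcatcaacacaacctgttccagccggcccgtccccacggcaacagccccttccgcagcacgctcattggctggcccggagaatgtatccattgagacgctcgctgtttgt
DUSP8 held 2 CREs, starting 118 and 74 bases upstream of the start, and DUSP1 held 1 CRE, at 125 bases, and further copies of the core at 172 and 111 bases. A CRE was present in 1.65% of the 35116 windows of this length in the table, and the core in 21.2%. The windows of DUSP10 and DUSP6 held none of the 4 motifs as spelled. DUSP10 and DUSP8 shared no match in these windows, while DUSP8 and DUSP1 both held a CRE. Whether any of these motifs acts on the RNA of these genes was not tested. The ETS core was found in 14.5% and the AP-1 site in 6.57% of windows. Of the windows not printed, SPRY2 held a CRE core and an ETS core, and SPRY1 held an ETS core before a later start. SPRY3 held a CRE core and SPRED3 an AP-1 site. Windows were available for 8 of the 10 genes. DUSP4 and DUSP5 had none.

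Among the Sproutys, SPRY4 carried the largest loss. SPRY4, which blocks RAS activation by receptor tyrosine kinases, was at 588 and 479 CPM in untreated Surv-GFP and at 200.05 and 234 CPM upon TMZ. In SurvNESmut-GFP it was at 186 and 169 CPM untreated and at 49.6 and 75.6 CPM upon TMZ. The untreated level of SurvNESmut-GFP lay below the exposed level of Surv-GFP, and no groups overlapped. SPRY4 fell 2.46-fold (log2 -1.30 ± 0.12, adjusted p = 1.57e-07, edgeR) in Surv-GFP and 2.85-fold (-1.51 ± 0.14, adjusted p = 3.03e-07, edgeR) in SurvNESmut-GFP. The effects did not differ past the threshold (-0.21, 95% interval -0.60 to 0.18, adjusted p = 0.398, edgeR), but did so without TMZ-exposed SurvNESmut-GFP b (-0.54, adjusted p = 0.000779, edgeR), the library with the higher value of its group.

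SPRY4-IT1, a long non-coding RNA from an intron of SPRY4 that was looked up after the values of SPRY4 had been seen, also fell. It had 113 and 107 reads in untreated Surv-GFP, 37 and 32 upon TMZ, 54 and 37 in untreated SurvNESmut-GFP and 14 and 18 upon TMZ. It fell by 1.65 on the log2 scale (adjusted p = 3.14e-06, edgeR) in Surv-GFP and by 1.36 (adjusted p = 0.00143, edgeR) in SurvNESmut-GFP. Reads from unspliced SPRY4 RNA and from SPRY4-IT1 cannot be told apart in a gene count.
The 250 bases before the SPRY4 start (chr5:142324248-142324497, minus strand, GRCh38.p14, RefSeq) held 1 CRE core, in capitals, at 68 bases upstream, and no ETS core.
SPRY4: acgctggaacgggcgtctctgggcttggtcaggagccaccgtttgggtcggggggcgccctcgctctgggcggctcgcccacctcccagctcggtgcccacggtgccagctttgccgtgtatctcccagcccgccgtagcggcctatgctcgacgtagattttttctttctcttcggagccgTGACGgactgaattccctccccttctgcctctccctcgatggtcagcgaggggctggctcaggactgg

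SPRY2, which inhibits ERK signalling downstream of growth factor receptors, changed little and in the opposite direction to SPRY4 in Surv-GFP. It was at 209 and 202 CPM untreated and at 255 and 261 CPM upon TMZ in Surv-GFP, and at 136 and 126 against 125 and 149 CPM in SurvNESmut-GFP. The exposed libraries were higher without overlap in Surv-GFP only. The log2 fold change was 0.33 ± 0.07 (adjusted p = 0.000407, edgeR) in Surv-GFP and 0.06 (95% interval -0.08 to 0.21, adjusted p = 0.513, edgeR) in SurvNESmut-GFP. The interaction (-0.27 ± 0.10, adjusted p = 0.0371, edgeR) was lost with library totals (adjusted p = 0.0921), with DESeq2 (adjusted p = 0.0644) and without any single library other than b of untreated or exposed SurvNESmut-GFP (adjusted p between 0.0622 and 0.173, edgeR). Without TMZ-exposed SurvNESmut-GFP a, SPRY2 was called higher in that clone too (0.19, adjusted p = 0.0180, edgeR).

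SPRY1, an antagonist of fibroblast growth factor signalling, fell in SurvNESmut-GFP and not in Surv-GFP. It was expressed at low levels, with 8.73 and 7.51 CPM in untreated and 8.45 and 9.13 CPM in exposed Surv-GFP, and with 16.5 and 13.7 CPM in untreated and 5.79 and 9.08 CPM in exposed SurvNESmut-GFP. Untreated SurvNESmut-GFP stood alone at the top, and the other 6 libraries overlapped. The log2 fold change was 0.11 (95% interval -0.25 to 0.48, adjusted p = 0.599, edgeR) in Surv-GFP and -1.04 ± 0.16 (adjusted p = 0.000101, edgeR) in SurvNESmut-GFP, with an interaction of -1.15 ± 0.24 (adjusted p = 0.00124, edgeR). SPRY3, the remaining Sprouty gene, had 60 to 102 reads a library and fell in Surv-GFP (-0.64 ± 0.17, adjusted p = 0.00315, edgeR), with -0.14 ± 0.16 in SurvNESmut-GFP (adjusted p = 0.504, edgeR). The difference for SPRY3 was not called (0.50, adjusted p = 0.100, edgeR).

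SPRED1 and SPRED2, which recruit neurofibromin to RAS at the membrane, both fell in Surv-GFP, and more so than in SurvNESmut-GFP. SPRED1 was at 164 and 162 CPM untreated and at 110 and 109 CPM upon TMZ in Surv-GFP, and at 138 and 132 CPM untreated and 106 and 114 CPM upon TMZ in SurvNESmut-GFP. Exposed libraries lay below the untreated ones in both clones and at about one level in both. The log2 fold change was -0.57 ± 0.05 (adjusted p = 5.90e-08, edgeR) in Surv-GFP and -0.30 ± 0.05 (adjusted p = 0.000208, edgeR) in SurvNESmut-GFP, and the effects differed by 0.27 ± 0.07 (adjusted p = 0.00755, edgeR).

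SPRED2 was at 157 and 146 CPM untreated and 128 and 126 CPM upon TMZ in Surv-GFP, but at 136 and 132 against 134 and 129 CPM in SurvNESmut-GFP, where the libraries overlapped. It fell 1.20-fold (log2 -0.26 ± 0.05, adjusted p = 0.000401, edgeR) in Surv-GFP, with -0.03 (95% interval -0.14 to 0.08, adjusted p = 0.721, edgeR) in SurvNESmut-GFP. The difference of 0.23 ± 0.07 (adjusted p = 0.0204, edgeR) was lost without untreated Surv-GFP a (adjusted p = 0.135), untreated SurvNESmut-GFP b (0.0910) or exposed Surv-GFP a (0.0509). SPRED3, the third SPRED gene, went the opposite way: it rose from 19 and 16.8 to 61.8 and 63.4 CPM in Surv-GFP (log2 1.80 ± 0.09, adjusted p = 6.06e-11, edgeR). In SurvNESmut-GFP it was at 9.16 and 10.3 CPM untreated and 9.41 and 12.3 CPM upon TMZ, and its interaction was -1.66 ± 0.16 (adjusted p = 8.58e-07, edgeR).

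Comparing the TMZ effects between the clones, 8 of the 10 genes had an interaction past the threshold. In 3 of them the effect was more positive in SurvNESmut-GFP (DUSP6, SPRED1, SPRED2), beside 16.6% of all genes tested, and in 5 it was more negative (DUSP4, DUSP5, DUSP10, SPRY1, SPRY2), beside 20.2%. The median difference of the 10 genes was -0.21 log2 units, beside -0.0010 over all genes. For DUSP4, DUSP5, DUSP10, SPRY2, SPRED1 and SPRED2, the estimate in SurvNESmut-GFP had the sign of that in Surv-GFP and was nearer to 0. The share of all genes with this pattern was not computed. Calls upon TMZ were fewer in SurvNESmut-GFP over all genes tested (18.6% higher and 19.1% lower, against 30.1% and 28.9% in Surv-GFP). A smaller effect in this clone is thus not shown to be particular to these genes. The number of more negative effects fell to 3 with DESeq2 size factors, with library totals, with a filter of 1 CPM in 2 libraries or with DESeq2, in each case without DUSP4 and SPRY2. It also fell to 3 without untreated Surv-GFP b, TMZ-exposed Surv-GFP b or untreated SurvNESmut-GFP a, and the number of more positive effects fell to 1 without untreated Surv-GFP a or untreated SurvNESmut-GFP b. Of the 7 remaining family genes, none had a more positive and 4 a more negative effect in SurvNESmut-GFP (DUSP7, DUSP8, DUSP16, SPRED3).

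**Figure D2:**
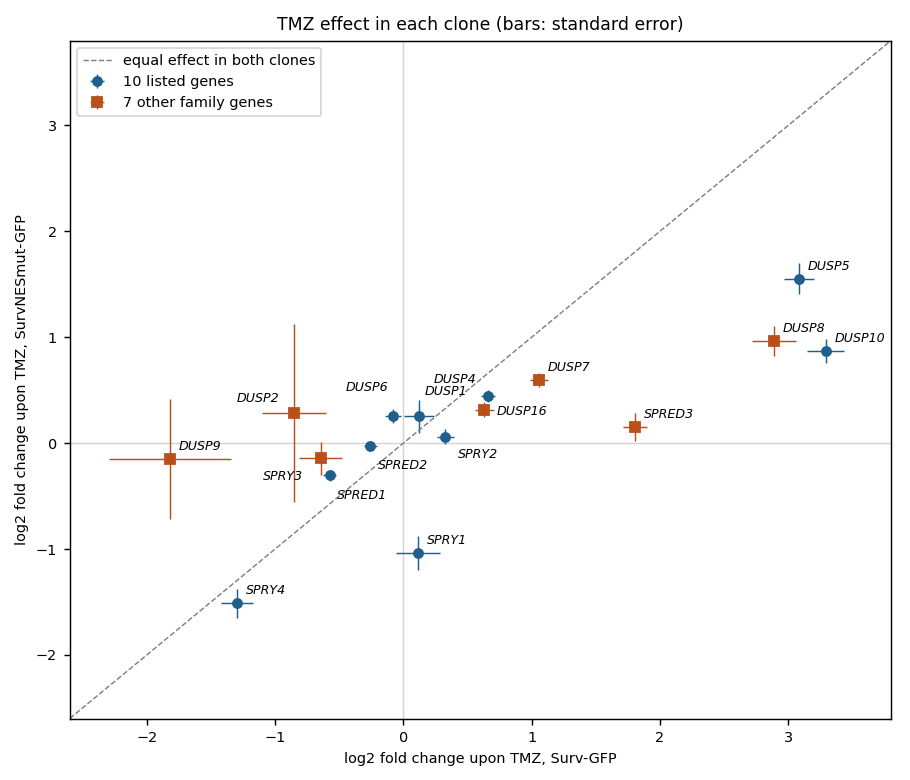
Log2 fold change upon TMZ in Surv-GFP (horizontal axis) and SurvNESmut-GFP (vertical axis) of the 10 genes (circles) and the 7 other family genes (squares), with standard errors as bars and the line of equal effects dashed. DUSP5, DUSP10, DUSP8 and SPRED3 lie far below the dashed line, and SPRY4 lies at the lower left with -1.30 and -1.51.

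The clones differed without any drug. In untreated cells 8 of the 10 genes were lower in SurvNESmut-GFP and 2 were higher (DUSP10, SPRY1), while 29.4% of all genes tested were lower and 34.7% higher. The median log2 difference was -0.50, beside 0.03 over all genes. SPRY4 was 3.0-fold lower (log2 -1.58 ± 0.13, adjusted p = 1.21e-08, edgeR), DUSP1 2.89-fold lower (-1.53 ± 0.14, adjusted p = 4.52e-08, edgeR) and DUSP6 2.40-fold lower (-1.26 ± 0.07, adjusted p = 6.24e-11, edgeR). SPRY2 (-0.65), DUSP5 (-0.58), DUSP4 (-0.42), SPRED1 (-0.27) and SPRED2 (-0.18) were lower by smaller amounts. DUSP10 was 4.68-fold higher (2.23 ± 0.17, adjusted p = 5.41e-09, edgeR) and SPRY1 1.86-fold higher (0.90 ± 0.16, adjusted p = 9.60e-05, edgeR). The calls of DUSP5 and SPRED2 were lost without untreated Surv-GFP a (log2 differences -0.33 and -0.12) or untreated SurvNESmut-GFP b (-0.42 and -0.15). That of DUSP5 was also lost with a robust prior and all libraries kept (adjusted p = 0.0742, edgeR).

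Upon TMZ, 6 of the 10 genes were lower in SurvNESmut-GFP and none was higher, while 34.7% of all genes tested were lower and 34.5% higher. The median log2 difference was -0.77. DUSP5 now differed most, 4.33-fold (log2 -2.12 ± 0.11, adjusted p = 4.69e-11, edgeR), followed by SPRY4 at 3.48-fold (-1.80 ± 0.14, adjusted p = 6.13e-09, edgeR) and DUSP1 at 2.64-fold (-1.40 ± 0.13, adjusted p = 8.72e-08, edgeR). DUSP6, SPRY2 and DUSP4 were lower by 0.92 ± 0.07, 0.91 ± 0.07 and 0.63 ± 0.05 on the log2 scale.
DUSP10, SPRY1, SPRED1 and SPRED2 did not pass the test between exposed clones. The log2 difference of DUSP10 was -0.19 with a 95% interval from -0.41 to 0.02, and that of SPRY1 was -0.25 with an interval from -0.63 to 0.13. SPRED1 and SPRED2 were narrower, with 0.00 (-0.11 to 0.11) and 0.06 (-0.05 to 0.17). Without TMZ-exposed SurvNESmut-GFP a, DUSP10 was called lower (-0.28, adjusted p = 0.0431, edgeR), and without TMZ-exposed SurvNESmut-GFP b, SPRY1 was called lower (-0.64, adjusted p = 0.00279, edgeR).

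**Figure D3:**
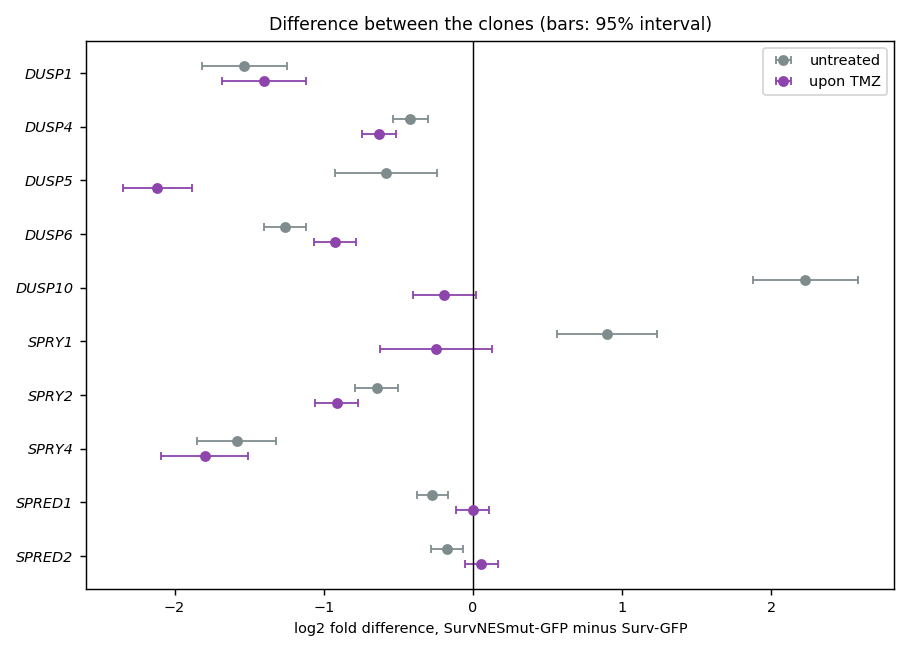
Log2 difference between the clones (horizontal axis, SurvNESmut-GFP minus Surv-GFP) of the 10 genes without drug (grey) and upon TMZ (purple), with 95% intervals as bars. DUSP10 and SPRY1 lie to the right of 0 without drug, and their intervals include 0 upon TMZ, whereas DUSP5 moves from -0.58 to -2.12.

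To compare levels between genes, CPM were divided by the exon length in kb (GENCODE v29). In untreated Surv-GFP SPRY4 stood highest of the 10 genes at 81.3 ± 11.8 CPM per kb (SD, n = 2), followed by SPRY2 at 67.5 ± 1.66, DUSP6 at 54.9 ± 4.66 and DUSP4 at 48.3 ± 2.80 CPM per kb, and DUSP10 was lowest at 0.778 ± 0.189. The gap between SPRY4 and SPRY2 was close to the SD of SPRY4, and this order was not tested. Upon TMZ SPRY2 (84.8 ± 1.37 CPM per kb) and DUSP4 (76.2 ± 4.39) led in Surv-GFP, DUSP5 had reached 55.8 ± 6.23, and SPRY4 was at 33.1 ± 3.66. In TMZ-exposed SurvNESmut-GFP DUSP4 (49.2 ± 0.277 CPM per kb) and SPRY2 (45.1 ± 5.59) led, and SPRY4 was at 9.53 ± 2.80.

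Within the 10 MKP genes measured, DUSP5 made up 4.47% ± 0.517 (SD, n = 2) of the summed level per kb in untreated Surv-GFP and 23.4% ± 1.27 upon TMZ, against 4.79% ± 0.665 and 9.88% ± 1.03 in SurvNESmut-GFP. DUSP6 went from 37.7% ± 1.1 to 21.8% ± 0.530 in Surv-GFP, although its own level per kb was 54.9 untreated and 51.9 upon TMZ, since the sum went from 146 to 238 CPM per kb. Within the 4 Sprouty genes, SPRY4 went from 53.5% ± 2.97 to 27.4% ± 1.86 in Surv-GFP and from 36.3% ± 0.143 to 16.5% ± 2.32 in SurvNESmut-GFP, and SPRY2 made up most of the remainder. Within the 3 SPRED genes, SPRED3 went from 5.84% ± 0.267 to 22.0% ± 0.461 in Surv-GFP and from 3.78% ± 0.397 to 4.55% ± 0.806 in SurvNESmut-GFP. These shares are descriptions of 2 libraries a group and were not tested.

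**Figure D4:**
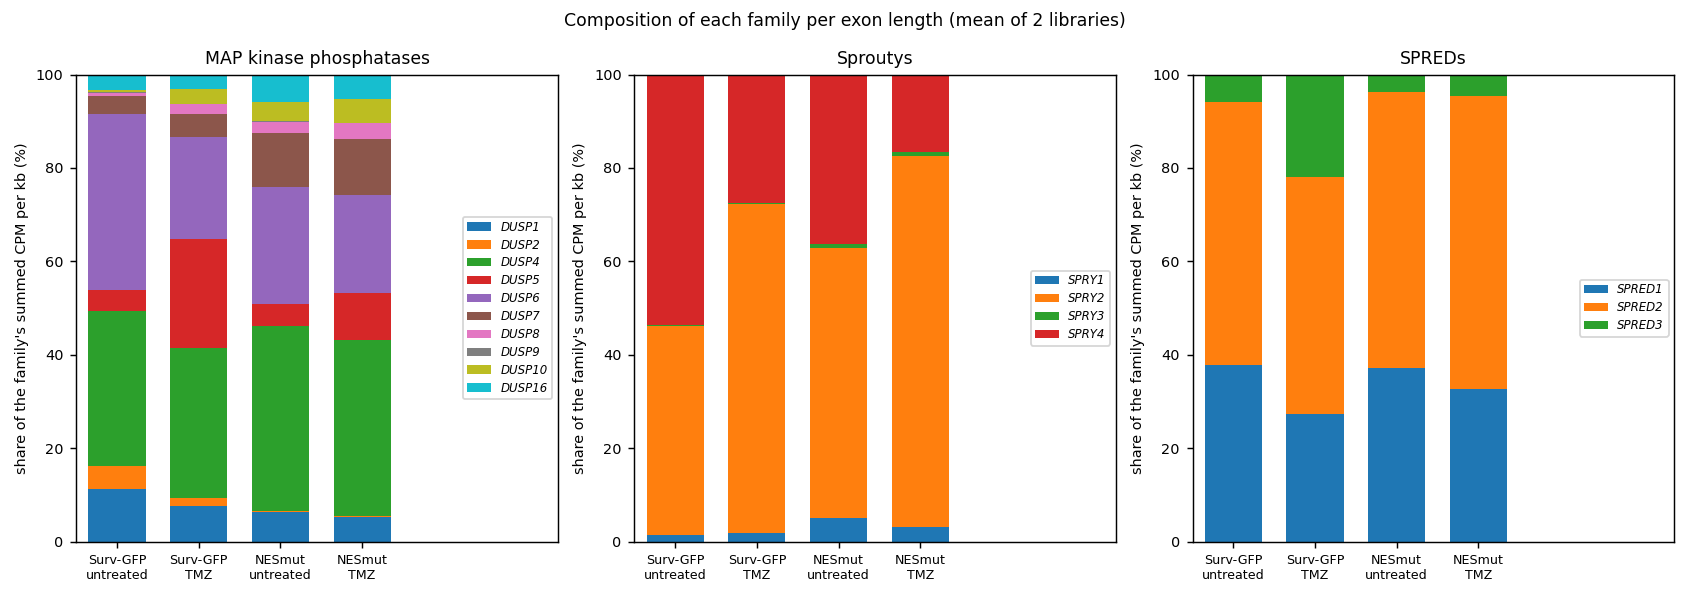
Share of each gene (vertical axes, % of the family's summed CPM per kb, mean of 2 libraries) in the 10 MKP genes, the 4 Sprouty genes and the 3 SPRED genes, 1 bar per group. The DUSP5 share of the MKP genes is largest in TMZ-exposed Surv-GFP, at 23.4%, and the SPRY4 share of the Sprouty genes is smaller upon TMZ in both clones.

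Other genes transcribed upon ERK signalling, a list of 13, also moved in both directions. In Surv-GFP 8 rose and 5 fell upon TMZ, with a median log2 fold change of 0.62, while 30.1% of all genes tested rose and 28.9% fell. In SurvNESmut-GFP 5 rose and 4 fell, with a median of -0.01, while 18.6% of all genes rose and 19.1% fell. EPHA2, a receptor tyrosine kinase, rose from 129 ± 0.855 to 368 ± 13.6 CPM in Surv-GFP and from 211 ± 1.39 to 322 ± 0.770 CPM in SurvNESmut-GFP (interaction -0.90, adjusted p = 4.6e-08, edgeR). FOSL1, which encodes the AP-1 subunit FRA1, rose by 1.48 in Surv-GFP and by 0.14 in SurvNESmut-GFP on the log2 scale, the latter call being lost without any one of 6 libraries (adjusted p up to 0.240, edgeR). PHLDA1 rose by 1.09 in Surv-GFP and was at 0.04 (adjusted p = 0.578, edgeR) in SurvNESmut-GFP. IER3, an early response gene, rose in Surv-GFP (0.87) and fell in SurvNESmut-GFP (-0.52, not called with a robust prior, adjusted p = 0.106), and CCND1 (cyclin D1) rose in both (0.62 and 0.23). The ETS factors ETV1 and ETV5 fell in both clones (log2 fold changes -0.22 and -0.61 for ETV1 and -0.37 and -0.15 for ETV5). In SurvNESmut-GFP the call of CCND1 was lost without untreated SurvNESmut-GFP a (adjusted p = 0.0540, edgeR), and that of ETV5 without either untreated library or exposed library a of that clone (up to 0.149, edgeR). FOS was at 395 ± 165 CPM in untreated and 105 ± 45.5 CPM in exposed Surv-GFP, with a wide spread between libraries (-1.92 ± 0.28, adjusted p = 1.98e-05, edgeR), and at 87.96 ± 18.1 and 76.8 ± 32.7 CPM in SurvNESmut-GFP. The interaction was called more positive in 2 and more negative in 8 of the 13, beside 16.6% and 20.2% of all genes, with a median of -0.38.

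**Figure D5:**
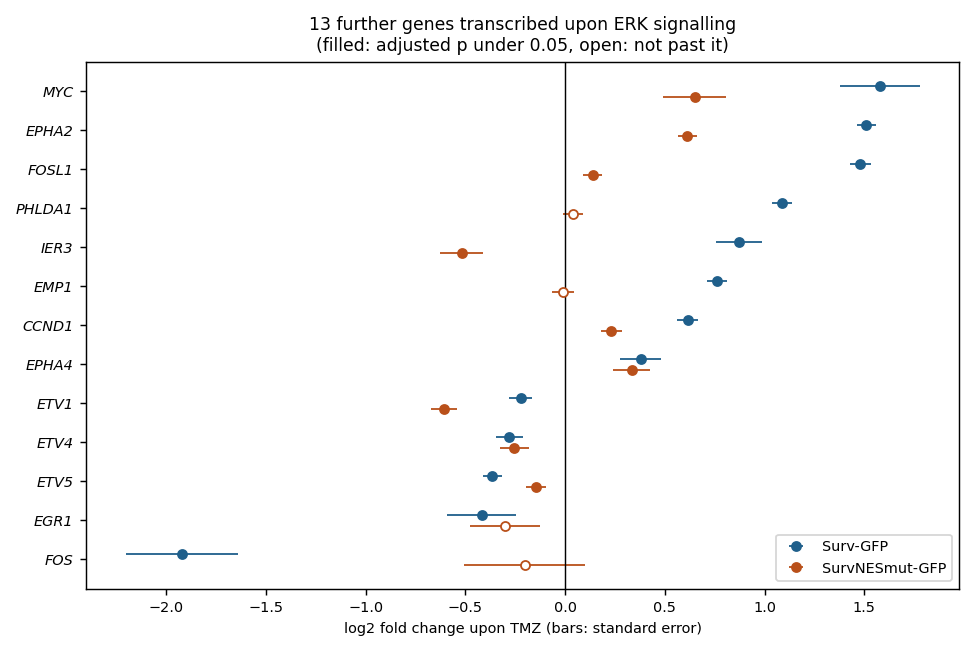
Log2 fold change upon TMZ (horizontal axis, bars are standard errors) of 13 further genes transcribed upon ERK signalling in Surv-GFP (blue) and SurvNESmut-GFP (orange), filled where the adjusted p is under 0.05. FOSL1 and PHLDA1 rose by 1.48 and 1.09 in Surv-GFP and stand near 0 in SurvNESmut-GFP.

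The cascade itself was covered by 24 genes, from adaptors to the RSK kinases. Of these, 15 rose and 5 fell in Surv-GFP (median log2 fold change 0.20), and 4 rose and 4 fell in SurvNESmut-GFP (median 0.04). The shares over all genes were 30.1% and 28.9% in Surv-GFP and 18.6% and 19.1% in SurvNESmut-GFP, so that the counts of the cascade in SurvNESmut-GFP were near the background. BRAF, a RAF kinase, rose from 19.9 ± 0.914 to 34.1 ± 0.651 CPM in Surv-GFP and was at 19.9 ± 0.434 and 18.3 ± 0.224 CPM in SurvNESmut-GFP (interaction -0.90, adjusted p = 1.40e-05, edgeR). RPS6KA2, which encodes an RSK kinase downstream of ERK, rose in both clones (0.97 and 1.36), and so did NF1, the RAS inactivator that SPREDs recruit (0.34 and 0.30). GAB1, an adaptor of receptor tyrosine kinases, fell in both (-0.77 and -0.55), and NRAS rose in Surv-GFP (0.24) and fell in SurvNESmut-GFP (-0.20), the latter not called without exposed SurvNESmut-GFP a (adjusted p = 0.0516, edgeR). The interaction was called more positive in 3 and more negative in 8 of the 24, beside 16.6% and 20.2% of all genes.

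Of 16 JNK and p38 kinases and their upstream kinases, the targets and activators on the branch that DUSP1, DUSP8, DUSP10 and DUSP16 act on, 2 rose and 8 fell in Surv-GFP (median -0.09), and 2 rose and 4 fell in SurvNESmut-GFP (median -0.03). Beside the 30.1% and 28.9% of all genes in Surv-GFP and the 18.6% and 19.1% in SurvNESmut-GFP, the counts in SurvNESmut-GFP were again near the background. MAP2K6 and MAP2K3, which both phosphorylate p38, went in opposite directions in Surv-GFP. MAP2K6 fell from 17.6 ± 0.189 to 2.36 ± 0.157 CPM (-2.90, adjusted p = 4.78e-11, edgeR), and MAP2K3 rose from 63.2 ± 2.05 to 121 ± 4.0 CPM (0.93, adjusted p = 2.71e-10, edgeR). In SurvNESmut-GFP their log2 fold changes were -0.39 (adjusted p = 0.0606, and 0.0473 without untreated SurvNESmut-GFP a, edgeR) and -0.04 (adjusted p = 0.670, edgeR), and both interactions were called (2.51 and -0.97). MAP3K1, an upstream kinase of JNK, fell in Surv-GFP (-0.78), with -0.03 in SurvNESmut-GFP. Interactions were called more positive in 6 and more negative in 3 of the 16, beside 16.6% and 20.2% of all genes.

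Of 10 other negative regulators of receptor tyrosine kinase signalling, 5 rose and 3 fell in each clone, beside 30.1% and 28.9% of all genes in Surv-GFP and 18.6% and 19.1% in SurvNESmut-GFP. Over the 9 that had counts in every group the median log2 fold change came to 0.45 and 0.17. CBL, a ubiquitin ligase for activated receptors, rose from 102 ± 3.76 to 185 ± 6.84 CPM in Surv-GFP and from 88.5 ± 6.35 to 102 ± 7.84 CPM in SurvNESmut-GFP, the latter not called without untreated SurvNESmut-GFP b (adjusted p = 0.220, edgeR) or exposed SurvNESmut-GFP a (0.149). IL17RD, which encodes SEF, an inhibitor of fibroblast growth factor signalling, fell in Surv-GFP (-1.14) and rose in SurvNESmut-GFP (0.51), an interaction of 1.65 (adjusted p = 2.44e-06, edgeR). RGS2, an inhibitor of G protein signalling, went the opposite way (0.50 and -1.22, interaction -1.72, adjusted p = 1.98e-06, edgeR), its increase in Surv-GFP not being called without library a of either Surv-GFP group (0.0539 and 0.0583, edgeR). RASAL2, a RAS inactivator, rose in both clones by similar amounts (0.73 and 0.65, difference -0.08, adjusted p = 0.609, edgeR). Interactions were called more positive in 4 and more negative in 3 of the 10, beside 16.6% and 20.2% of all genes.

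Similarity of patterns was described by the root-mean-square distance between the 4 centred group means on the log2 scale. Within the 10 genes the closest pairs were SPRED1 with SPRED2 (0.15) and DUSP1 with DUSP6 (0.20). The distance is not scaled to the size of the changes, so genes that hardly change lie close whatever their pattern. The SD of the 4 centred means was 0.24 for SPRED1 and 0.10 for SPRED2, against 0.73 for DUSP1 and 0.55 for DUSP6. The distance between the SPREDs thus exceeded the SD of SPRED2 and does not show a shared pattern. Among all genes with at least 1 CPM on average, the gene nearest to DUSP5 was INHBA (0.17), which encodes a subunit of activin A, and the gene nearest to DUSP10 was CNN1 (0.18), which encodes calponin. ST8SIA5, a sialyltransferase gene, was nearest to SPRY4 (0.05), and ADAMTS1, a secreted protease gene, to SPRY1 (0.12). With 4 groups, many genes lie close to any given pattern: ZNF319 lay at 0.0073 from DUSP4.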

How the data were processed

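RNA-Seq of 8 libraries was analysed at the gene level. The authors deposited raw read counts per gene symbol, without normalization. Reads on no gene (11.2% to 14.3%) or on several (1.19% to 1.28%) were left out. The submitters' processing notes list STAR 2.5.0b, Cufflinks 2.2.1 and edgeR without their roles, and no source names the genome build or the strand setting. The authors' 5 tables of fold changes and p-values were not used. Counts were filtered with filterByExpr, scaled by TMM and fitted with edgeR 4.0.16 (R 4.3.3) as 4 group means, with quasi-likelihood F tests and Benjamini-Hochberg adjustment over 14201 genes. The SE of a log2 fold change was its size over the square root of F. CPM are on the TMM scale. The common biological coefficient of variation was 4.09%. The depth of 15826923 to 18861603 reads sets the counting error. The scripts were tested on simulated counts. Alternatives were other scalings, filters and priors, fits of the compared libraries alone, DESeq2 1.42.0, a replicate block and leaving out each library. The sources mention both biological replicates and technical duplicates and do not say which of these the letters a and b are, so errors describe the spread between letters.

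The 10 genes and all lists were chosen with earlier results of these data known. Their counts and medians beside those of all genes are therefore descriptions, not tests. Family genes were always named. From each further list, the named genes were at most the 2 most significant ones per direction for the TMZ effects and their interaction. A further gene is said to be so where it was picked after its values were seen. Exon lengths came from GENCODE v29 and promoter windows from RefSeq (GRCh38.p14).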

Additional observations from a re-analysis of the deposited data

Results flagged for a closer look

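The effect of TMZ differed between the clones, by the interaction test of edgeR over all genes, in 12 of the 17 MKP, Sprouty and SPRED genes. Over all genes tested, 16.6% had a more positive and 20.2% a more negative effect in SurvNESmut-GFP. Values are log2 differences, SurvNESmut-GFP minus Surv-GFP. The more negative effects in SurvNESmut-GFP were those of DUSP10 (-2.42, adjusted p = 1.15e-07, edgeR), DUSP8 (-1.92, adjusted p = 8.89e-06), SPRED3 (-1.66, adjusted p = 8.58e-07), DUSP5 (-1.53, adjusted p = 1.75e-05), SPRY1 (-1.15, adjusted p = 0.00124), DUSP7 (-0.46, adjusted p = 0.00147), DUSP16 (-0.32, adjusted p = 0.0249), SPRY2 (-0.27, adjusted p = 0.0371) and DUSP4 (-0.21, adjusted p = 0.0362). The more positive effects were those of DUSP6 (0.34, adjusted p = 0.00877), SPRED1 (0.27, adjusted p = 0.00755) and SPRED2 (0.23, adjusted p = 0.0204). Each construct is represented by 1 clone, so the construct and the clone cannot be told apart.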

How the results depend on the processing

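No call of the 10 genes turned its direction in any alternative. Over the 5 comparisons, 375 of 400 results with 1 library left out stood on the same side of the threshold, 20 lost their call and 5 gained one. With other scalings, filters, priors or tests, 381 of 390 stood on the same side and 9 lost their call. The count most open to processing was that of more negative interactions, 5 in the main analysis and 3 with DESeq2 size factors, with library size alone, with a filter of 1 CPM in 2 libraries and with the DESeq2 test. Leaving out 1 library gave 3 to 6 more negative and 1 to 3 more positive interactions. The cause was not tested. With the replicate letter as a block, 49 of 50 results stood on the same side, and the interaction of DUSP4 lost its call (-0.21, adjusted p = 0.0526, edgeR). No pairing by letter was seen: the differences between a and b correlated across genes at -0.0671 to 0.0832 between groups. Such weak correlations cannot exclude that libraries of the same letter were handled together, and the labels give no shared culture or day. The counting error limits DUSP10, DUSP9 and DUSP2, which had under 50 reads in some libraries. Other scalings moved the median of all genes by less than 0.1 log2 units.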
